A study of Mus musculus with 6 samples.

Results

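The endoplasmic reticulum (ER) unfolded protein response was followed through the RNA of 10 mouse genes in fibroblasts labelled WT and GαqKO. The genes were taken by name, as rows of the deposited gene table whose Ensembl identifier carries the symbol Hspa5, Hsp90b1, Pdia4, Pdia6, Calr, Canx, Xbp1, Atf6, Dnajb9 or Herpud1, and all 10 were found among 56953 listed genes and among the 14096 that were abundant enough to test. The samples were 6 bulk poly-A RNA-seq libraries of MEFs (mouse embryonic fibroblasts, the connective tissue cells cultured out of embryos), with 3 libraries of the WT genotype and 3 of GαqKO. Both groups were grown in the same serum-containing medium with no treatment named in the labels. The study describes the second line as lacking both Gαq and its close relative Gα11, G proteins that link receptors to phospholipase Cβ, and names the 3 libraries of each genotype biological replicates. It gives 1 WT line and 1 knockout line, so line and genotype cannot be told apart, and p-values here measure the spread between these libraries.

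Secreted and membrane proteins fold in the ER, and fibroblasts, which export large amounts of collagen and fibronectin, depend on this step. When unfolded proteins build up, the sensors IRE1α, PERK and ATF6 are released from the chaperone BiP. IRE1α splices the Xbp1 message into a form that encodes an active transcription factor, ATF6 moves to the Golgi and is cut to free its own transcription factor domain, and PERK slows translation and raises ATF4. ATF6 and XBP1 then switch on genes for chaperones, disulfide isomerases, lectins and the machinery that sends misfolded proteins out for degradation.

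Many of these target genes carry an ER stress response element in their promoter, and the elements of the 10 genes are shown first because later paragraphs refer back to them. RefSeq promoter windows, from 250 bases before to 50 bases after an annotated start on the GRCm38.p6 assembly, were at hand for 9 of the 10 genes, Atf6 being the exception, and each of the 9 was found at 1 place in GRCm39. The element ERSE was searched as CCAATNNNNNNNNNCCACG, ERSE-II as ATTGGNCCACG and the core of the XBP1-binding UPRE as TGACGTGG, each on both strands. None of the matches below overlaps another. ERSE was present in 5 of the 9 windows, against 39 of 32851 mouse promoter windows (0.119%). ERSE-II was present in the window of Herpud1, against 12 of all windows (0.0365%). The UPRE core was in 0 of the 9 and in 222 of all windows (0.676%). The matched stretches are printed along the strand of the gene, 5′ to 3′, with the fixed letters of the element in capitals.
Hspa5, from 65 to 47 bases before the start: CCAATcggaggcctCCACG
Hsp90b1, from 212 to 194 bases before the start: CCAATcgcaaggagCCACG
Hsp90b1, from 107 to 89 bases before the start, on the opposite strand: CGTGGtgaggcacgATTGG
Pdia6, from 98 to 80 bases before the start: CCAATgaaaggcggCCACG
Calr, from 162 to 144 bases before the start, on the opposite strand: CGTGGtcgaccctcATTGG
Canx, from 145 to 127 bases before the start: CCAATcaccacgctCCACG
Herpud1, from 52 to 42 bases before the start: ATTGGgCCACG

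The promoter stretches of 5 genes are given in longer form, each limited to the longest run of window bases outside annotated GENCODE exons, with GRCm39 coordinates. Herpud1 is shown because it was the 1 gene of the 10 with a higher level in the GαqKO libraries, Calr and Pdia6 as genes with ERSE of which 1 fell and 1 did not pass the test, and Pdia4 and Xbp1 because their levels fell most and no exact match was found in their windows. The missing match says only that these letters are not in these windows.
Herpud1, chr8:95112807-95113021, + strand: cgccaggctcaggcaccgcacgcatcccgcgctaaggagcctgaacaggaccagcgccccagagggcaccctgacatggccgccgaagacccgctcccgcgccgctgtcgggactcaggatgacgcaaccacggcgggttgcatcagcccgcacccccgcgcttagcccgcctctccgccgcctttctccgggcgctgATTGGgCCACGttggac
Calr, chr8:85573668-85573750, - strand: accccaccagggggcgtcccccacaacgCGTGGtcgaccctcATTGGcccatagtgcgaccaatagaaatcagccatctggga
Pdia6, chr12:17316340-17316532, + strand: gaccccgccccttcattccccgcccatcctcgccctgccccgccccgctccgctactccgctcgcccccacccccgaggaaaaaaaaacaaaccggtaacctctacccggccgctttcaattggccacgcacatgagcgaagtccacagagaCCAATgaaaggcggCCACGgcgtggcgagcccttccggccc
Pdia4, chr6:47790463-47790696, - strand: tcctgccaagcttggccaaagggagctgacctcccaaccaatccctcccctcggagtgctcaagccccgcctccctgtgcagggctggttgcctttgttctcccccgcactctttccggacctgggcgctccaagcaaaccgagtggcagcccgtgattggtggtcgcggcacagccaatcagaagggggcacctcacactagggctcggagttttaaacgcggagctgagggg
Xbp1, chr11:5470391-5470605, + strand: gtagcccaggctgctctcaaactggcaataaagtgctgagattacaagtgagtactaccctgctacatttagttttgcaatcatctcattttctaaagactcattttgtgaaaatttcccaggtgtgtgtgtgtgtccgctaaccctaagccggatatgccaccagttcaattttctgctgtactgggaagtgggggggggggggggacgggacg

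**Figure D1:**
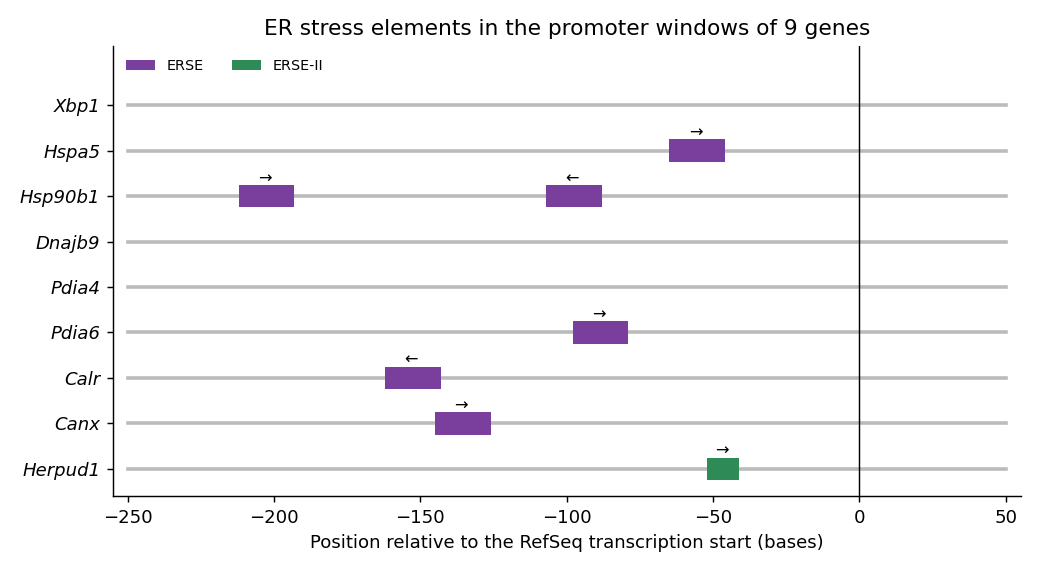
Position of each ER stress element match (coloured blocks, arrows giving the strand relative to the gene) within the RefSeq promoter window of 9 genes (grey lines), in bases from the transcription start. ERSE blocks lie between 212 and 47 bases before the start in 5 genes, Hsp90b1 holds a pair on opposite strands, and ERSE-II is seen in Herpud1.

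Depth was known for 5 of the 6 libraries, and the targeted genes were read in all 6. Normalized counts, the deposited values, are gene counts divided by 1 size factor per library, and they summed to between 11392429 and 11483486 per library. The reads behind them could be recovered in 5 libraries and ran from 9853000 to 12229175. Gnaq, which encodes Gαq, was not lower in the libraries labelled GαqKO, with 1691 ± 48.5 normalized counts in WT and 1926 ± 36 in GαqKO (SD, n = 3 each), and it was called higher (log2 fold change 0.19, limma adjusted p = 0.00212). Which part of Gnaq was deleted is not given in the sources used here, so its gene count may not check the label. Gna11, which encodes Gα11, was at 2148 ± 29.0 in WT and 452 ± 28.7 in the libraries labelled GαqKO (log2 fold change -2.25, limma adjusted p = 9.16e-13). The fibroblast label was checked with 12 markers, whose summed level was 89881 to 95693 in WT and 64801 to 68247 in the libraries labelled GαqKO. Vim, Col1a1 and Fn1 were abundant in all 6 and lower in GαqKO. Col1a1 was at 15324 to 17402 in WT and 5461 to 5951.5 in GαqKO, and Fn1 at 10992 to 13338 and 6622 to 7424. Other markers went against the sum. Pdgfra was at 17.5 to 21.9 in WT and 2274 to 2356 in GαqKO, Dcn at 30.1 to 35.5 and 1604 to 1710.0, Thy1 at 0 to 2.09 and 59.0 to 76.5, and S100a4 at 142.5 to 189 and 483 to 553. Pdgfrb was at 834 to 946 in WT and 1004 to 1088 in GαqKO. Lum was at 0 in WT and at 1.16 to 4.03 in GαqKO. Of 8 epithelial markers, 3 (Krt19, Krt14 and Cdh1) were abundant enough to test, and the summed level of the 8 was 1044 to 1147 in WT and 11.1 to 30.1 in GαqKO. The 6 plasma cell markers, of interest because such cells run a strong unfolded protein response, summed to 3091 to 3130 in WT and 2348 to 2449 in GαqKO, nearly all from Sdc1, with Mzb1 and Irf4 at 0. The endothelial and skeletal muscle lists summed to at most 40.5 in any library, with Myf5 and Myog at 0. The neuronal tubulin gene Tubb3 was at 365 to 428 in WT and 47.3 to 70.5 in GαqKO, and the macrophage marker Cd68 at 84.6 to 104 and 54.5 to 79.8. The pan-leukocyte gene Ptprc was at most 3.13 in any library, the macrophage receptor gene Csf1r at most 20.4 and the glial gene Sox10 at most 1.04. The part of these cell type differences in the results below was not tested, and in bulk RNA fewer cells of a type and less RNA per cell cannot be told apart.

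Most of the 10 genes were lower in the libraries labelled GαqKO, by modest amounts. Atf6, Xbp1, Hspa5, Hsp90b1, Dnajb9, Pdia4 and Calr fell (adjusted p under 0.05 in limma, with Benjamini-Hochberg adjustment over all genes tested), Herpud1 rose, and Pdia6 and Canx did not pass the test. This makes 7 of 10 lower, where 34.1% of all genes tested were lower, and 1 of 10 higher, where 31.8% were higher. The median log2 fold change of the 10 was -0.39, and that of all 14096 genes was -0.01 with an interquartile range from -0.40 to 0.39. By mean normalized count, 7 of the 10 stood above the 75th percentile of all genes tested. None of the 10 passed the study's fold threshold of 1 on the log2 scale, which 10.5% of all genes passed downwards and 10.2% upwards. The 3 GαqKO libraries all lay below the 3 WT libraries for 8 of the 10 genes, where this held for 35.8% of all genes, and all above them for 1 of the 10, where this held for 33.8%. Log2 fold changes are on the scale of log2(normalized count + 1), and their sign is GαqKO minus WT.

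**Figure D2:**
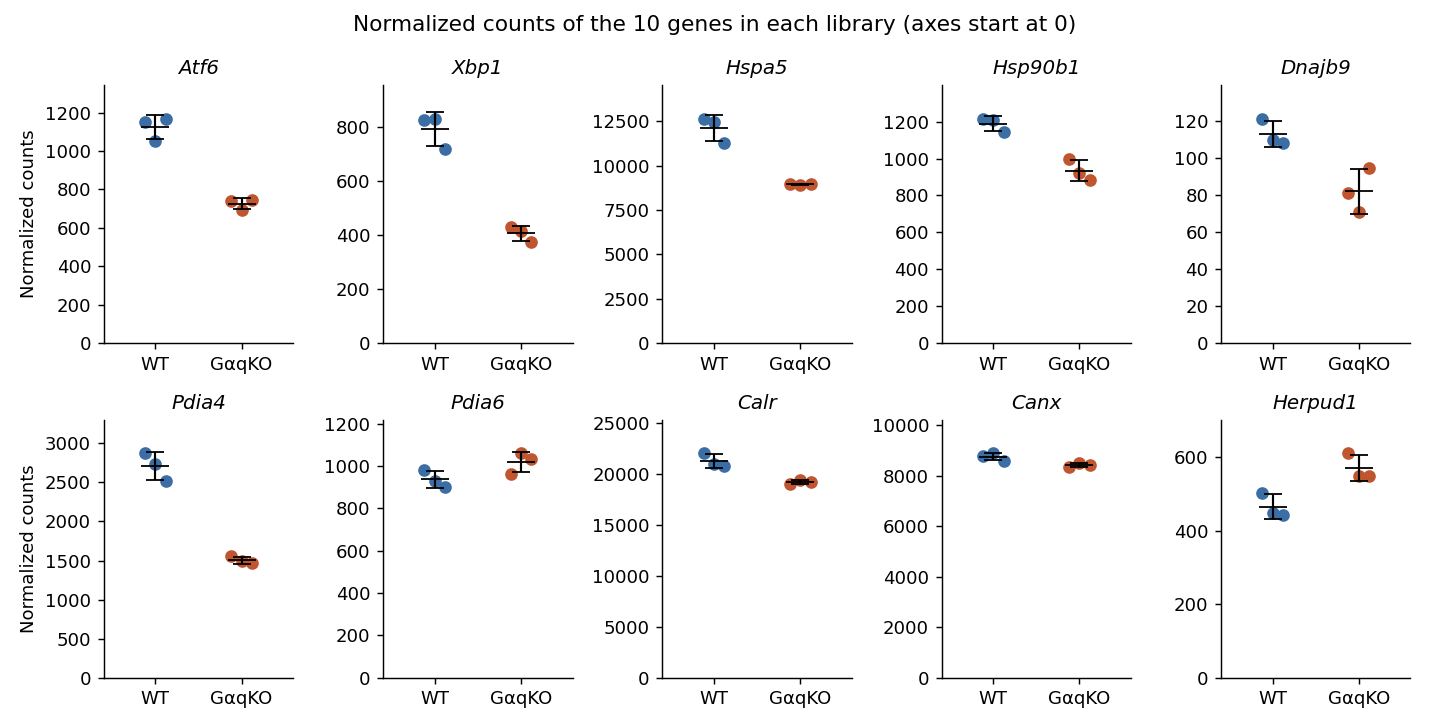
Normalized counts of the 10 genes in each of the 6 libraries, WT in blue and GαqKO in orange, with bars for mean ± SD (n = 3) and vertical axes starting at 0. The groups are apart for 9 genes and overlap for Pdia6, and Herpud1 is the 1 gene with all GαqKO libraries above WT.

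Both transcription factor genes among the 10 fell. Atf6 (chr1:170532026-170696208), the ER-bound sensor that is itself the precursor of a transcription factor, was at 1154, 1054 and 1169.5 normalized counts in WT and at 739, 693 and 747 in GαqKO. All GαqKO libraries were below all WT libraries, by 35.4% in the fit (log2 fold change -0.63, SE 0.059, adjusted p = 4.82e-07 in limma). Of the exon bases of its canonical transcript, 2.65% lie within another gene. Xbp1 (chr11:5470606-5483027), the transcription factor whose message IRE1α splices, was at 829, 833 and 721 in WT and at 429, 416 and 375 in GαqKO. This was the largest fall of the 10 genes, by 48.7% in the fit (log2 fold change -0.96, SE 0.077, 95% interval from -1.13 to -0.80, adjusted p = 9.23e-08 in limma). Gene counts do not separate spliced from unspliced Xbp1 message. All exon bases of the canonical Xbp1 transcript lie within the span of the antisense gene Ccdc117, though 0% lie in its exons. Exons of other Xbp1 transcripts cover 44.4% of the exon bases of the canonical Ccdc117 transcript. Ccdc117 was at 1245 to 1277 in WT and 1281 to 1363 in GαqKO.

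The chaperones of the ER lumen were lower as well. Hspa5 (chr2:34661982-34668880) encodes BiP, the main ER chaperone and the brake on the sensors, and was at 12645, 12432 and 11276 in WT and at 8978, 8925 and 8930.4 in GαqKO. Its GαqKO values were lower by 26.1% (log2 fold change -0.44, SE 0.047, adjusted p = 1.8e-06 in limma). Their coefficient of variation, 0.326% against 6.08% in WT, was the smallest of the 10 genes in either group. With 3 libraries a spread is only loosely known, and this difference in spread was not tested. Hsp90b1 (chr10:86526073-86541446) encodes GRP94, which folds integrins and other membrane and secreted clients, and was at 1216, 1207 and 1144 in WT and at 997, 924 and 883 in GαqKO. The groups did not overlap and the log2 fold change was -0.35 (SE 0.057, adjusted p = 1.12e-04 in limma). Dnajb9 (chr12:44252341-44257171) encodes ERdj4, a J-domain partner that recruits BiP to IRE1α and to degradation clients, and was by far the least abundant, at 121, 109.8 and 108 in WT and at 80.8, 70.5 and 94.7 in GαqKO. Its log2 fold change of -0.47 had the widest interval of the 10, from -0.80 to -0.13 (adjusted p = 0.0165 in limma), and this call was lost without WT replicate 1 (adjusted p = 0.059), without GαqKO replicate 2 (adjusted p = 0.0637) and in DESeq2 on recovered reads (adjusted p = 0.0738). Of the exon bases, 88.1% of Hspa5 lie within the antisense gene Rabepk and 50.5% of Hsp90b1 within predicted genes, one of them on the same strand. Rabepk was at 360 to 381 in WT and 376 to 408 in GαqKO.

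The disulfide isomerases went apart. Pdia4 (chr6:47770077-47790462), also known as ERp72, was at 2873, 2735 and 2519 in WT and at 1554, 1496 and 1466 in GαqKO. All GαqKO libraries lay far below WT, by 44.3% (log2 fold change -0.85, SE 0.053, adjusted p = 7.38e-09 in limma). Pdia6 (chr12:17316533-17335913), or P5, an isomerase that also binds IRE1α, was at 983, 928 and 903 in WT and at 964, 1060.3 and 1033 in GαqKO. Its groups overlapped, and the log2 fold change of 0.12 had an interval from -0.003 to 0.24 (adjusted p = 0.0796 in limma). This value passed the threshold, at 0.15, without WT replicate 1 (adjusted p = 0.0431) and, at 0.16, without GαqKO replicate 1 (adjusted p = 0.0452). Of the exon bases of Pdia6, 35.9% lie within Atp6v1c2, against 0.255% of Pdia4 within another gene.

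The lectin chaperones, which hold newly made glycoproteins in the folding cycle, differed by under 10%. Calr (chr8:85567946-85573667) encodes calreticulin, the soluble lectin and a major calcium-binding protein of the ER lumen, and was the most abundant of the 10, at 22011.5, 20963 and 20773 in WT and at 18973, 19379 and 19169 in GαqKO. The groups did not overlap and the fall was by 9.74% (log2 fold change -0.15, SE 0.041, adjusted p = 0.00569 in limma). Canx (chr11:50183939-50216529) encodes calnexin, the membrane-bound lectin, and was at 8776, 8883 and 8594 in WT and at 8351, 8498 and 8406 in GαqKO. Although all GαqKO libraries were below WT, the log2 fold change of -0.06 had an interval from -0.14 to 0.03 (adjusted p = 0.21 in limma). Neither gene has an exon base inside another gene.

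Herpud1 (chr8:95113022-95123141) went the other way. It encodes HERP, a membrane protein that assembles the HRD1 complex for ER-associated degradation, and was at 504, 449.8 and 444 in WT and at 611, 550.4 and 549.8 in GαqKO. All GαqKO libraries were above all WT libraries, and the rise was by 22.4% (log2 fold change 0.29, SE 0.074, 95% interval from 0.13 to 0.45, adjusted p = 0.00338 in limma). Of its exon bases, 10.6% lie within the predicted gene Gm15890. It was also the only one of the 9 windows with ERSE-II, while among the 5 genes with ERSE there were 3 that fell and 2, Pdia6 and Canx, that did not pass the test.

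**Figure D3:**
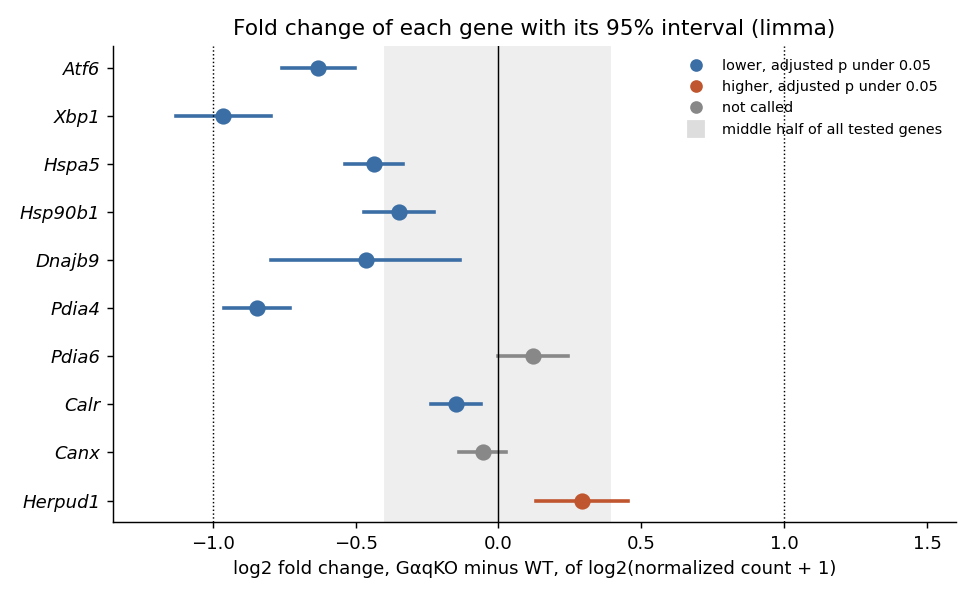
Log2 fold change of each of the 10 genes (points, GαqKO minus WT) with its 95% interval (lines), on the scale of log2(normalized count + 1). The grey band is the interquartile range of all genes tested, from -0.40 to 0.39, the dotted lines mark the fold threshold of 1, and Xbp1, Pdia4 and Atf6 lie clear of the band.

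Overlap with other genes went along with counts of 0 over the whole table. Among protein-coding genes with every exon base inside the span of another listed gene, 69.7% of 1705 were listed at 0 in all 6 libraries, against 22.7% of 13004 with no such base, and whether this comes from the counting or from lower expression was not tested. The strand setting of the counting is not given in the sources used here, so reads in the 44.5% of Hspa5 exon bases that are also Rabepk exon cannot be told apart. The canonical Xbp1 transcript has 0% of its exon bases in Ccdc117 exons. Exons of other Xbp1 transcripts do overlap Ccdc117, covering 44.4% of its canonical exon bases, and reads there cannot be told apart either. Among the 5 genes with under 10% of exon bases in other genes (Pdia4, Calr, Canx, Atf6 and Dnajb9), 4 were called lower and 0 higher, where 36.4% and 31.5% of the 9435 tested genes under the same limit were. Xbp1 and Herpud1 are over this limit.

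The 10 genes together took a smaller share of all normalized counts in the libraries labelled GαqKO. The share was 0.447%, 0.433% and 0.417% in WT and 0.363%, 0.369% and 0.366% in GαqKO, a mean of 0.432% ± 0.0151 against 0.366% ± 0.0029 (SD, n = 3 each). The groups did not overlap, and the exact permutation test, two-sided, gave p = 0.1, the smallest that 3 against 3 libraries allow. The drop was by 15.4% for all 10 genes and by 19.7% without Calr, which alone made up 43.0% of the sum in WT and 45.9% in GαqKO. Hspa5 fell from 24.5% to 21.4% of that sum and Pdia4 from 5.47% to 3.60%, while Canx went from 17.7% to 20.15%. Within WT, replicate 3 was the lowest library for 9 of the 10 genes and replicate 1 the highest for 7.

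Per kilobase of canonical transcript, a scale that adjusts for transcript length, the order of the 10 changed between the groups. Reads in exon bases shared with other genes are not adjusted for, and how they were counted is not given in the sources used here. Such bases made up 44.5% of Hspa5, 24.9% of Hsp90b1 and a smaller part of Pdia6, but 0% of Calr and Canx. The part of this overlap in the ranks and ratios below was not tested. In WT, Calr stood at 9287 normalized counts per kb, ahead of Hspa5 at 2447 and Canx at 2298, whose ranges over libraries overlapped. Pdia4 followed at 493, Hsp90b1 at 420.2 and Xbp1 at 403, the last pair overlapping, then Pdia6 at 282, Herpud1 and Atf6 both at about 149 and overlapping, and Dnajb9 at 45.9. In the libraries labelled GαqKO, Calr stood at 8380.0, and Canx at 2211 was now above Hspa5 at 1806 in every library. The level of Hspa5 over that of Canx was 1.06 ± 0.051 in WT and 0.817 ± 0.0096 in GαqKO. Hsp90b1 at 330.3 and Pdia6 at 306 overlapped, and Pdia4 at 274 was below both, so that Pdia4 over Pdia6 went from 1.75 ± 0.051 to 0.897 ± 0.069. Xbp1 at 207, above Pdia6 in WT, was now below it. Xbp1 and Herpud1 at 183 overlapped, where in WT they had been apart, and Herpud1 over Xbp1 went from 0.372 ± 0.026 to 0.887 ± 0.047. Atf6 at 96.3 and Dnajb9 at 33.3 came last. These ratios (SD over 3 libraries) were computed after the values of the genes were seen and are given as a description.

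**Figure D4:**
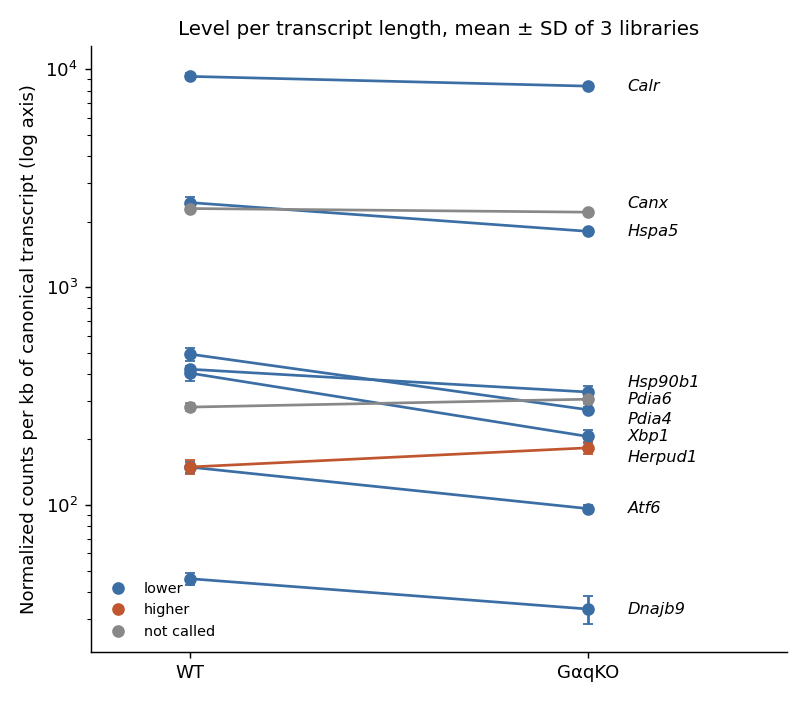
Mean level per kilobase of canonical transcript (log axis) of the 10 genes in WT and GαqKO, with bars for SD over 3 libraries and colour for the limma call. The line of Hspa5 crosses that of Canx, the line of Pdia4 crosses those of Hsp90b1 and Pdia6, and the line of Xbp1 crosses that of Pdia6.

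The other genes of the response were taken from lists, and the first held its sensors and ER-bound transcription factors. Without Atf6 and Xbp1, 11 of 14 such genes could be tested, of which 7 were lower, 2 higher and 2 not called. Among all genes tested, 34.1% were lower and 31.8% higher. Ern1, which encodes IRE1α, was at 813, 777 and 1005 normalized counts in WT and at 433, 449 and 413 in GαqKO (log2 fold change -0.99, adjusted p = 2.36e-07 in limma). The PERK gene Eif2ak3 went from 352 ± 25.5 to 284 ± 40.8 (log2 fold change -0.32, adjusted p = 0.0175), so the genes of the sensors IRE1α, PERK and ATF6 were all lower. The largest change of any listed gene was in Creb3l1, an ATF6-like factor known for its part in collagen production. It was at 1962, 1879 and 1898 in WT and at 0.939, 10.4 and 3.02 in GαqKO (log2 fold change -8.74, adjusted p = 6.23e-10), a difference that rests on a near-absent level in 1 group. Creb3l2, its relative, went from 1591 ± 73.0 to 573 ± 12.8 (log2 fold change -1.47). Higher were Atf6b, the paralogue of Atf6, from 482 ± 3.53 to 682 ± 29.2 (log2 fold change 0.50), and Mbtps1, the Golgi protease that makes the first cut in ATF6, from 1745 ± 46.4 to 2526 ± 63.8 (log2 fold change 0.53).

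Partners of BiP and GRP94 split between lower and not called. Without Dnajb9, 17 were tested, with a median log2 fold change of -0.06. Of these, 7 were lower, 2 higher and 8 not called, where 34.1% of all genes tested were lower and 31.8% higher. The J-domain co-chaperones Dnajc3 (from 2381 ± 55.8 to 1584 ± 22.2) and Dnajb11 (from 1569 ± 54.5 to 1142 ± 12) and Cnpy4, of the canopy family, (from 792 ± 38.7 to 493 ± 21.2) fell, with log2 fold changes of -0.59, -0.46 and -0.68. Of the exon bases of Dnajb11, 78.6% lie within another gene. Creld1, the membrane-bound relative of the chaperone-like Creld2, went from 414 ± 8.64 to 88.7 ± 4.54 (log2 fold change -2.21, adjusted p = 2.41e-10 in limma), but 56.9% of its exon bases lie in exons of Prrt3. Hyou1, the nucleotide exchange factor of BiP and a common readout of the response, was at 2579 ± 123 and 2529 ± 74.2 (adjusted p = 0.63), and Manf, a secreted BiP cofactor, at 1213 ± 90.5 and 1159 ± 67.4 (adjusted p = 0.395).

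Among oxidoreductases and in the calnexin cycle, lower calls outnumbered higher ones, where 34.1% of all genes tested were lower and 31.8% higher. Without Pdia4 and Pdia6, 15 oxidoreductases were tested, of which 10 were lower, 1 higher and 4 not called (median log2 fold change -0.27). P4hb, the founding disulfide isomerase, fell to 9731 ± 225 from 10993 ± 724 (adjusted p = 0.00617 in limma), and Pdia5 to 81.1 ± 10.3 from 154 ± 3.51 (log2 fold change -0.92). Txndc5 was the 1 that rose, to 5282 ± 83.9 from 3901 ± 112 (log2 fold change 0.44). In the calnexin and calreticulin cycle without its lectins, 10 were tested, 7 lower and 3 higher (median log2 fold change -0.26). Ganab, the glucosidase that admits glycoproteins to the cycle, went from 3648 ± 35.4 to 2304 ± 127 (log2 fold change -0.66), and Uggt2, a folding sensor, from 416 ± 29.4 to 188 ± 22.6 (log2 fold change -1.14). Mogs, the glucosidase before Ganab, and Lman1, an ER-to-Golgi cargo receptor, rose by 28.1% and 18.5%.

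ER-associated degradation and the translocon held genes that moved either way, where 34.1% of all genes tested were lower and 31.8% higher. Without Herpud1, 23 degradation genes were tested, of which 10 were lower, 3 higher and 10 not called (median log2 fold change -0.11). Syvn1, the ubiquitin ligase HRD1 with which HERP works, went from 869 ± 53.0 to 512 ± 10.2 (log2 fold change -0.76, adjusted p = 1.24e-07 in limma), and its adaptor Sel1l from 1244 ± 42.9 to 923 ± 78.9 (log2 fold change -0.43), both in the direction opposite to Herpud1. Ube2j1, an ER-bound conjugating enzyme, fell by 0.53 on the log2 scale, while Aup1 and Ubxn8 rose by 0.38 and 0.46. Of the exon bases, 33.6% of Aup1 lie within Htra2 and 67.0% of Ubxn8 within Ppp2cb. Of 21 translocon, signal peptidase and glycan transfer genes, 7 were higher, 6 lower and 8 not called (median log2 fold change 0.03). Ssr3, a translocon subunit, went from 5692 ± 237 to 9893 ± 264 (log2 fold change 0.80), and Spcs3, a signal peptidase subunit, from 7874 ± 315 to 4293 ± 27.8 (log2 fold change -0.87). Sec11c and Sec61b changed by 0.69 and -0.61.

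Calls in the PERK arm stood near the shares over all genes tested, 31.8% higher and 34.1% lower. Of its 10 genes, 3 were higher, 4 lower and 3 not called. Atf4, the transcription factor of the integrated stress response, was at 7917, 7842 and 6837 in WT and at 9264, 9449 and 9457 in GαqKO (log2 fold change 0.32, adjusted p = 1.12e-04 in limma), although the factor is controlled mainly in translation. Ddit3, which encodes CHOP, rose from 262 ± 17.8 to 400.3 ± 23.7 (log2 fold change 0.61), but all its exon bases lie within another gene. Cebpb, the dimer partner of CHOP, rose by 0.69, but 60.4% of its exon bases lie within Peds1. Lower were Atf3 from 230.5 ± 24.9 to 13.4 ± 2.06 (log2 fold change -4.01) and Chac1 from 571 ± 54.6 to 269.8 ± 48.3 (log2 fold change -1.09). So were Sesn2 from 704 ± 2.47 to 352 ± 29.0 (log2 fold change -1.0) and Asns from 1196 ± 57.1 to 937 ± 25.2 (log2 fold change -0.35). Trib3, of the same arm, was at 514 ± 25.1 and 514 ± 24.3 (adjusted p = 0.982 in limma).

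Over all ER lists without the 10 genes, 135 were tested, of which 61 were lower and 30 higher, with a median log2 fold change of -0.09. These shares stand beside 34.1% lower and 31.8% higher for all genes tested, and no test was run on the lists.

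**Figure D5:**
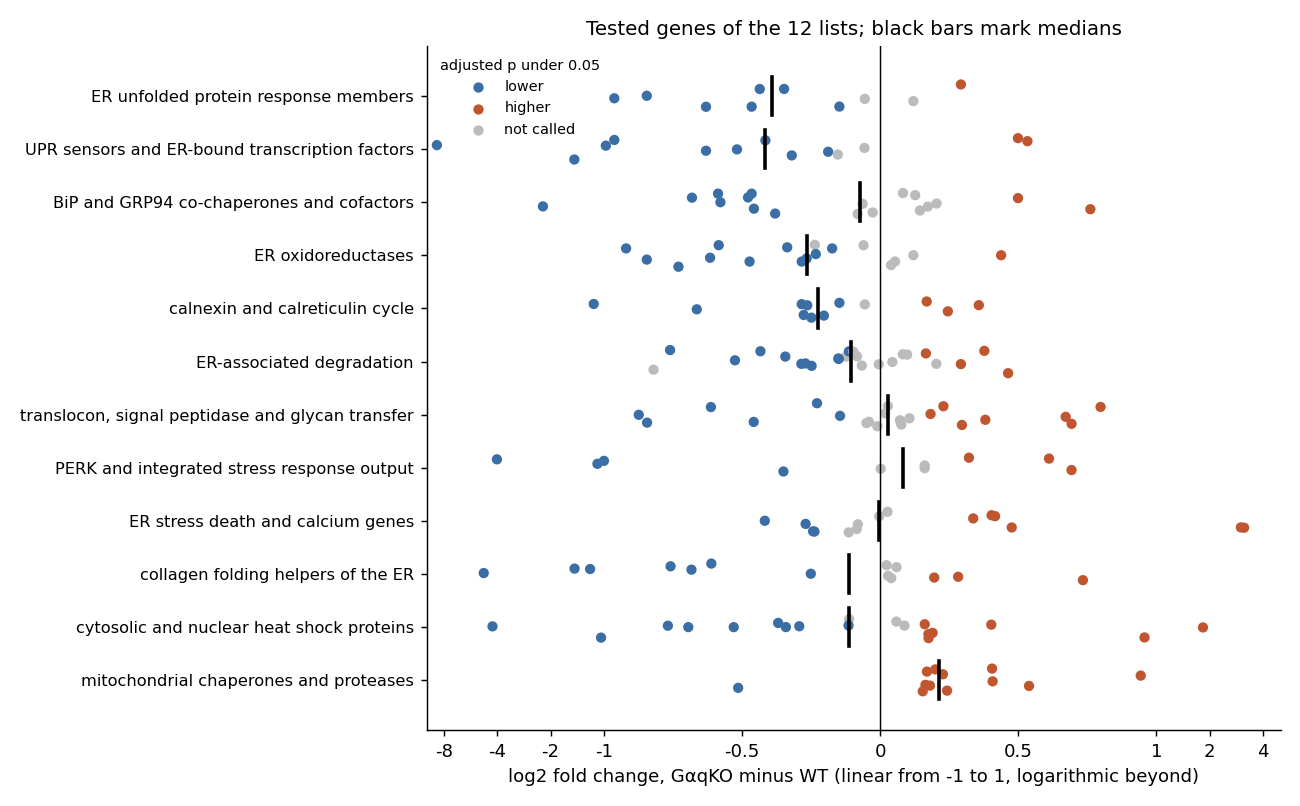
Log2 fold change of every tested gene in 12 lists (points, coloured by limma call) with the median of each list (black bars), on an axis that is linear from -1 to 1 and logarithmic beyond. Genes that stand in more than 1 list are drawn in each, and the medians run from -0.42 for the sensors and ER-bound transcription factors to 0.21 for the mitochondrial list.

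The other genes whose promoter window holds an element were picked after the values of the 10 were seen, and are described without a test. ERSE windows belong to 37 genes, of which 12 outside the 10 were tested. Of these, 6 were lower, 2 higher and 4 not called (median log2 fold change -0.51). Over all genes tested, 34.1% were lower and 31.8% higher. Besides Dnajc3 and Syvn1, the lower ones with ERSE were Hnrnpa3, Pan2, Zfp57 and Gm20560. The higher ones were Alg12, an ER mannosyltransferase, from 438 to 697 (log2 fold change 0.67), and Adcy3, an adenylyl cyclase, from 109 to 348 (log2 fold change 1.67). Creld2 was at 472 and 515 (adjusted p = 0.0991 in limma). ERSE-II windows belong to 12 genes, of which 8 besides Herpud1 were tested, with 4 higher, 2 lower and 2 not called. Krtcap2, a subunit of the oligosaccharyl transferase, rose from 516 to 683 (log2 fold change 0.40), and Dnajb11 was among the lower ones.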

How the data were processed

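RNA was measured in 6 MEF libraries, grouped as WT and GαqKO by the genotype in their labels. The authors aligned reads to GRCm39 with Rbowtie2, assigned them to GENCODE M32 genes with featureCounts and used DESeq2 in R. The deposited table holds a signal rather than raw counts, each gene's count having been divided by 1 size factor per library, so a test on the log scale was used. Tool versions, the strand setting and the handling of reads that fit several genes are not given in the sources used here. The table held 0 columns of other samples. Summed levels of some marker lists are not reported here. Names, coordinates and canonical transcripts came from GENCODE M39, which matched 56310 identifiers (98.9%). Where 2 identifiers share a symbol, as for Ddit3, the one with the higher mean was used.

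Genes needed a normalized count of 10 or more in 3 or more libraries. The values, plus a pseudocount of 1, were put on the log2 scale and compared with limma (lmFit, then eBayes with trend), two-sided, and p-values were adjusted over all 14096 genes by the Benjamini-Hochberg method with a threshold of 0.05. Whole multiples of 1 step, within 0.01, gave back the reads of 5 libraries. The reads of GαqKO replicate 3 were not recovered, so edgeR and DESeq2, as alternatives, compared the other 5, and their biological coefficient of variation in edgeR was 5.21%. Scripts were tested on simulated data. The share of counts was compared by an exact permutation test. Intervals from limma cover the spread between libraries.

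The 10 genes and 12 lists, with 185 symbols, were chosen with earlier results of these data known. The text names the 10 genes, the 2 largest rises and falls of each list among called genes whose mean reached 100 normalized counts, listed genes past the fold threshold with that mean, Gnaq, Gna11, Atf4, Ddit3 and Ern1. Other listed genes named in the text (Eif2ak3, Dnajc3, Dnajb11, Hyou1, Manf, P4hb, Sel1l, Asns, Trib3, Hspd1, Serpinh1, Creld2, Bax, Bbc3, Bok) and the genes with promoter elements were chosen after their values were seen. Python 3.11.15 (numpy 2.4.6, pandas 2.3.3, scipy 1.17.1, matplotlib 3.10.9) and R 4.3.3 (limma 3.58.1, edgeR 4.0.16, DESeq2 1.42.0) were used.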

Additional observations from a re-analysis of the deposited data

How the results depend on the processing

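Of 160 values of the 10 genes under 16 alternatives each, 154 kept their direction and their side of the threshold, and 0 reversed. The alternatives changed the scaling (TMM, upper-quartile), the filter, the pseudocount (0.5 and 5), the prior spread, the replicate block, the tool and the libraries, leaving out 1 at a time. The largest shift of the median of all genes was 0.022, under upper-quartile scaling. Dnajb9 lost its call in DESeq2 (-0.57, adjusted p = 0.0738) and ran from -0.57 to -0.36 with 1 library left out. Pdia6 gained a call under upper-quartile scaling (0.14, adjusted p = 0.0467), which makes 2 of the 10 genes higher, and ran from 0.091 to 0.16 with 1 library left out, where 1 to 2 of the 10 were higher. The cause was not tested. Among genes with under 10% of exon bases in other genes, a setting added after the data were seen that leaves fewer genes, the 10 genes gave 0 higher and 4 lower, and the other listed genes 27 higher in place of 48. With at least 10 normalized counts in every library, 831 genes were higher and 765 lower past the fold threshold, in place of 1432 and 1486, since that filter removes genes near 0 in 1 group.

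For the lists, DESeq2 gave 0 higher BiP and GRP94 partners, 6 lower degradation genes, 2 lower death and calcium genes and 5 higher mitochondrial genes. Without a trend in the prior spread, 6 degradation genes were lower and 7 mitochondrial genes higher. With edgeR, with no filter and with the replicate block, 1 BiP and GRP94 partner was higher in each. Under upper-quartile scaling 2 oxidoreductases were higher. With 1 library left out, the counts of higher genes ran from 0 to 2 for the BiP and GRP94 partners, 1 to 2 for the oxidoreductases, 1 to 3 for the collagen helpers and 7 to 9 for the mitochondrial list. Bcl2l11 lost its call in DESeq2 and Plod1 without GαqKO replicate 2.

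Replicate numbers did not pair the libraries, since the correlations of same-numbered libraries were -0.045, -0.148 and -0.064. With the replicate block, 7 of the 10 genes were lower and 1 higher, as without it, and the counts over all genes were 4638 lower and 4324 higher. Dnajb9 had the fewest counts of the 10 genes and the widest interval, and what depth adds to that interval was not tested.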

Other observations

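Chaperones outside the ER were measured in the same fits, where 31.8% of all genes tested were higher and 34.1% lower. Of 12 mitochondrial chaperones and proteases, 11 were higher in the libraries labelled GαqKO and 1 lower, with a median log2 fold change of 0.21, and their share of all normalized counts went from 0.167% ± 0.0049 to 0.201% ± 0.0034 (SD, n = 3 each, exact permutation p = 0.1, the smallest possible). Htra2, a protease of the intermembrane space, rose from 1399 ± 23.8 to 2695 ± 162 normalized counts (log2 fold change 0.94), Grpel1, the exchange factor of mitochondrial Hsp70, from 816 ± 75.9 to 1183 ± 53.5 (log2 fold change 0.54), and Hspd1, which encodes Hsp60, from 1910 ± 97.1 to 2236 ± 117 (log2 fold change 0.23). Yme1l1, an inner membrane protease, was the 1 that fell (log2 fold change -0.51). The count of 11 dropped to 7 without a trend in the prior spread and to 5 in DESeq2 on recovered reads. Most of the exon bases of Htra2 (78.7%) and 31.2% of those of Grpel1 lie within other genes.

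Of 19 cytosolic and nuclear heat shock genes, 7 were higher and 9 lower, where 31.8% and 34.1% of all genes tested were. Hspa4l, an Hsp110 family exchange factor, rose from 1472 ± 61.0 to 5233 ± 211 (log2 fold change 1.83) and Dnajb1, an Hsp40, from 2216 ± 130 to 2926 ± 46.0 (log2 fold change 0.40), while Hsf2, a heat shock transcription factor, and Hspa2 had log2 fold changes of -0.77 and -1.04. Of the exon bases of Hspa2, 30.6% lie within another gene. Members of this family have near-identical copies, and how reads that fit several were counted is not given in the sources used here.

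Among 14 genes that help collagen fold in the ER, 3 were higher and 7 lower, where 31.8% and 34.1% of all genes tested were. Tmem38b, an ER cation channel, was at 204, 201 and 179 in WT and at 12.2, 4.63 and 4.03 in GαqKO (log2 fold change -4.76). Plod2, the lysyl hydroxylase of collagen cross-links, fell from 726 ± 10.2 to 317 ± 30.3 (log2 fold change -1.20), and Fkbp14, a prolyl isomerase, from 358 ± 16.5 to 129 ± 11 (log2 fold change -1.47), while Crtap, a subunit of the prolyl 3-hydroxylase complex, rose from 705 ± 9.16 to 1173 ± 18.6 (log2 fold change 0.73) and Plod1 from 432 ± 30.0 to 527 ± 52.9 (log2 fold change 0.28). Serpinh1, which encodes the collagen chaperone HSP47, was at 16398 ± 596 and 16722.5 ± 515 (adjusted p = 0.582 in limma). Of the exon bases of Crtap, 31.2% lie within another gene.

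Of 15 genes of ER calcium and ER stress death, 6 were higher and 4 lower, where 31.8% and 34.1% of all genes tested were. Itpr2, an ER calcium release channel, was at 63.7, 46.6 and 56.0 in WT and at 477, 481 and 497.5 in GαqKO (log2 fold change 3.12), and Itpr1 rose by 0.48. The death gene Bcl2l11, which encodes BIM, fell from 381 ± 36.6 to 286 ± 44.1 (log2 fold change -0.42). The death genes Bax and Bbc3 were higher, by 0.42 and 0.40 on the log2 scale, and Bok was not called. The calcium-binding Sdf4 fell by 0.27 on the log2 scale. Of the exon bases, 36.1% of Bax and 77.7% of Sdf4 lie within other genes.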
